A study of Mus musculus with 25 samples.

Results

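*Bmp4*, which encodes a bone morphogenetic protein (BMP), and 8 genes known to respond to BMP signals (*Id1*, *Id2*, *Id3*, *Id4*, *Msx1*, *Msx2*, *Smad6* and *Bambi*) were followed in mouse embryonic stem (ES) cells in which β-catenin signaling was raised in different ways. These are 9 of the 48440 genes in the count table, of which 24294 had a count in any library. They were picked by function, as a ligand and its common response genes, but *Bmp4* had entered as a gene that the study selected for its rise with an inhibitor dose, and *Msx1* as a steep dose responder. For these 2 genes the values in the dose libraries are therefore a description with no test. The other 7 were picked by function and not by a rule on those values, although earlier results of these data were known.

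Transcripts were counted by mcSCRB-seq, a bulk protocol that reads 3′ ends and counts each molecule by its molecular identifier, in 25 libraries of E14 cells, a feeder-free ES cell line that was grown in serum and leukemia inhibitory factor. Unedited wild-type cells received CHIR99021, an inhibitor of the kinase GSK3, for 48 h at 0, 2.5, 5, 7.5 or 10 µM, with 2 libraries per dose. The other 15 libraries were single clones without inhibitor, each heterozygous for 1 of 11 missense mutations of *Ctnnb1*, the β-catenin gene, at codon 37 (S37A, S37C, S37F, S37Y), 41 (T41A, T41I, T41N, T41S) or 45 (S45C, S45F, S45P). S37F, S45F, T41A and T41I had 2 clones each. The serines and threonine at these codons are phosphorylated when β-catenin is marked for degradation. Every clone had gone through a knock-in of a selection cassette and its replacement on 1 allele, which the unedited cells had not, so effects of the mutation and of cloning cannot be told apart in comparisons between them. Clones are described in the low (S45C, T41N, T41S; 3 clones), medium (S45F, S45P; 3) and high (S37A, S37C, S37F, S37Y, T41A, T41I; 9) categories of the mutational effect score (MES), the study's reporter readout in other ES cells. The study drew these categories from a clustering of these same expression profiles, so differences between categories are given here as a description. The relation to MES itself was tested over the 15 clones. MES has 1 value per mutation, so the 2 clones of a mutation entered as separate points. Nothing in the labels says that the 2 libraries of a dose came from separate cultures, and their p-values then measure only the spread between libraries.

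BMPs bind pairs of serine/threonine kinase receptors, which phosphorylate Smad1, Smad5 and Smad9. These join Smad4 and switch on target genes, among them the *Id* genes, whose proteins bind E-proteins such as Tcf3 and keep them off DNA, and the *Msx* homeobox genes. Smad6 and the decoy receptor Bambi are induced by the pathway and dampen it. In mouse ES cells grown with leukemia inhibitory factor, BMP4 and Id proteins are known for holding back neural differentiation, and in the gastrulating embryo BMP and Wnt signals act together on mesoderm.

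The promoters of the members whose levels separated the libraries most clearly are shown first, as RefSeq gives them for build GRCm38.p6, from 250 bases before to 50 after the transcription start. RefSeq windows were matched for 7 members, and *Id1* and *Bambi* had no entry. The windows were searched on both strands for GGCGCC, a GC-rich site of BMP-activated Smads, GTCTAGAC, the palindromic Smad-binding element, and CTTTGAT and CTTTGAA, the sites of TCF/LEF factors that carry β-catenin to DNA. The last pair share their first 6 letters, and no match overlapped another motif. Capitals mark a match. The plus strand holds *Id3* at chr4:136143572-136143871, and the minus strand holds *Id2* at chr12:25096043-25096342, *Msx1* at chr5:37824536-37824835 and *Smad6* at chr9:64022010-64022309.
*Id2*: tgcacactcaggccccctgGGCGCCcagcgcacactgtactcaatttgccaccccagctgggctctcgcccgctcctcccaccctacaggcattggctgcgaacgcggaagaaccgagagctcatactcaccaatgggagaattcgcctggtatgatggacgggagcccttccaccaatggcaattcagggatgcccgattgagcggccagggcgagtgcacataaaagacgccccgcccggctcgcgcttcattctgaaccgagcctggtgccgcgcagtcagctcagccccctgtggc
*Id3*: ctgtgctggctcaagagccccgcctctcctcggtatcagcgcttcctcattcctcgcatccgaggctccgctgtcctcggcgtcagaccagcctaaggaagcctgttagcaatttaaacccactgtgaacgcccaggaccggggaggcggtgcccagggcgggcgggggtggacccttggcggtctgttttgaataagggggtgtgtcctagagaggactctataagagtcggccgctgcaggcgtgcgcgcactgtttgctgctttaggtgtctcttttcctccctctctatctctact
*Msx1*: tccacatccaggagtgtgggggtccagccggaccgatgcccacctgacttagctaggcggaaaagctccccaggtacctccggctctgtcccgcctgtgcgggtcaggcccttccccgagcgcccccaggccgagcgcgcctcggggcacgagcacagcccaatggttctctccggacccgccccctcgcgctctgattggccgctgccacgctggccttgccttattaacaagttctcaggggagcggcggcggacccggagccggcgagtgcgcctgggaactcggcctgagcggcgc
*Smad6*: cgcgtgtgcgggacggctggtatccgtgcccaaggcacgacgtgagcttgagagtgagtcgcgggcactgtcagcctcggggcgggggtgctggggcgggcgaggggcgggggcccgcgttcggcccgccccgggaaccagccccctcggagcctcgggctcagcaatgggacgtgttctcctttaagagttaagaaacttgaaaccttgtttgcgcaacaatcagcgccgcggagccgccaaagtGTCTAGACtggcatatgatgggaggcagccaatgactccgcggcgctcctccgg
GGCGCC occurred in *Id2*, beginning 231 bases before the start, and in *Id4*, 148 bases before it, against 11.9% of all 32851 promoter windows. GTCTAGAC occurred in *Smad6* alone among the 7, beginning 4 bases before the start, against 0.213% of all windows. CTTTGAT and CTTTGAA, present in 3.73% and 5.14% of windows, were in none of the 7. All 7 windows were rich in G and C, from 60.0% in *Id3* to 73.3% in *Id4*, with a median of 52.7% over all promoters. A match describes these letters and is not evidence of binding.

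Libraries held 306157 to 2083398 counts, and the shallowest was replicate 1 at 10 µM. Levels are given as CPM, the counts of a gene scaled to a common library total, and 3 counts, the limit that a count of 0 allows, equal 1.44 to 9.80 CPM depending on the library. Because transcripts are read at the 3′ end, CPM does not depend on transcript length. Mitochondrial transcripts took 0.485% to 1.46% of counts in the unedited libraries and 1.53% to 2.52% in the clones, with no overlap. Of the ES cell markers, *Sox2*, *Nanog*, *Zfp42*, *Esrrb* and *Klf4* were at 121 to 931 CPM in every library, whereas *Pou5f1*, which defines these cells, had only 9.05 to 28.8 CPM. Whether all of its reads were assigned to it in the counting was not tested.

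With CHIR99021, *Bmp4*, 3 of the *Id* genes and both *Msx* genes stood higher at the upper doses, while the inhibitors *Smad6* and *Bambi* had no linear dose slope that passed the test. Of the 7 members tested, 4 rose with dose (*Id1*, *Id3*, *Id4* and *Msx2*) and 0 fell, at an adjusted p under 0.05 in edgeR's quasi-likelihood test with dose as a number and Benjamini-Hochberg adjustment. Over all 10033 genes in that fit, 5.89% rose and 6.63% fell. *Id4* and *Msx2*, at means of 3.77 and 3.21 CPM without inhibitor, passed the filter on low counts only through treated libraries. That filter favored a rise, so these 2 calls are no support for a rise of the members as a set. Markers of other cell types moved in the same libraries. The 6 trophoblast markers summed to 20.2 to 25.5 CPM without inhibitor, 44.6 to 60.9 at 5 µM and 32.7 to 52.0 at 10 µM, and both of those in the fit, *Gata3* and *Krt7*, rose. The neural marker *Tubb3* fell by -0.15 ± 0.03 log2 units per µM (SE, edgeR adjusted p 0.000338), from 31.9 to 37.0 CPM without inhibitor to 9.80 to 10.5 at 10 µM, and *Pax6* went from 17.4 to 23.4 CPM to 0 in both libraries at 10 µM, which allows up to 9.80 and 2.26 CPM. *Nes*, the other neural marker in the dose fit, had a slope of 0.04 (edgeR adjusted p 0.402). Of 6 ES cell markers, *Klf4* rose with dose, *Nanog*, *Zfp42* and *Sox2* fell, and 2 were not called. The part of these markers in the members' values was not tested.

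*Bmp4*, the ligand, lies on chromosome 14 (46383520 to 46390669, minus strand, GRCm38). Its levels were 48.9 and 54.2 CPM without inhibitor, 93.4 and 96.1 at 2.5 µM, 151 and 104 at 5 µM, 133 and 141 at 7.5 µM, and 144 and 115 at 10 µM. All 8 treated libraries lay above both untreated ones, and the doses from 5 to 10 µM overlapped each other. The fitted slope was 0.12 ± 0.02 (SE) log2 units per µM and mean levels were 2.58-fold higher at 7.5 and 10 µM than without inhibitor. The gene overlaps Gm15217 and Gm15222 on the other strand, which together held 27 and 39 counts over all libraries against 4342 for *Bmp4*. Whether counting used the strand is not given in the sources used here.

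*Msx1*, a homeobox repressor of differentiation, was close to the detection floor in untreated cells, with 4 counts in 1 library and 1 in the other (2.17 and 1.06 CPM). It stood at 10.1 and 7.62 CPM at 2.5 µM, 32.9 and 27.4 at 5 µM, 52.2 and 39.8 at 7.5 µM, and 52.3 and 46.7 at 10 µM. Each dose up to 7.5 µM lay above the last with no overlap, and the 7.5 and 10 µM libraries overlapped. Pooled over libraries, the ratio of 7.5 and 10 µM to 0 µM was 25.6, on 219 and 5 counts. *Msx2*, its close relative, followed at lower levels, from 2.17 and 4.25 CPM without inhibitor to 8.62 and 4.57, 14.8 and 14.4, 23.2 and 23.6, and then 16.3 and 12.8 CPM at 10 µM. Its slope was 0.23 ± 0.05 (SE) log2 units per µM with an edgeR adjusted p of 0.0012. The highest levels were at 7.5 µM, above both 10 µM libraries.

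**Figure D1:**
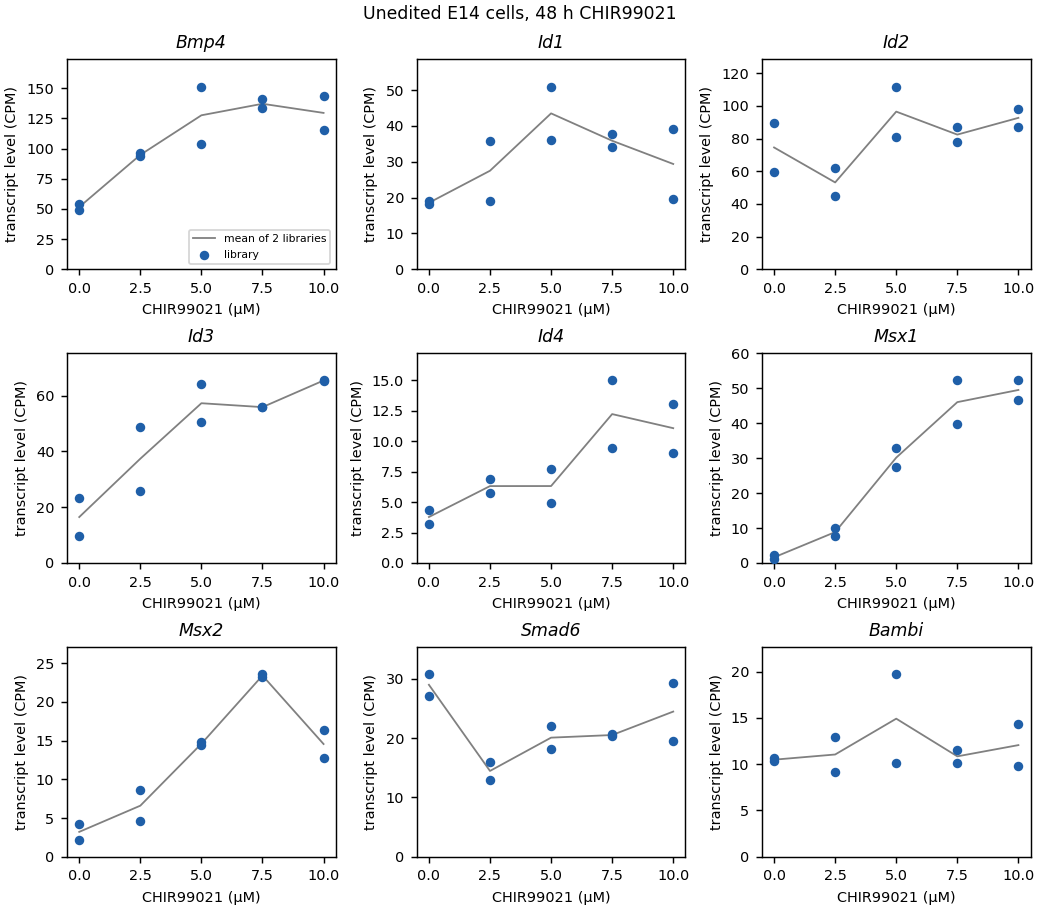
Transcript level in CPM (vertical axis, from 0) of the 9 members against the CHIR99021 dose in µM in unedited E14 cells, with 1 point per library and a line through the mean of the 2 libraries of each dose. *Msx1* climbs from 1.62 to 49.5 CPM between the means of 0 and 10 µM, whereas *Bambi* stays between 9.15 and 19.7 CPM in all 10 libraries.

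Among the *Id* genes, which encode dominant-negative partners of E-proteins, *Id3* had the steepest dose response. It was at 23.4 and 9.57 CPM without inhibitor, 48.9 and 25.9 at 2.5 µM, 64.2 and 50.4 at 5 µM, 55.9 in both libraries at 7.5 µM, and 65.3 and 65.5 at 10 µM, so that all treated libraries exceeded the untreated ones. Its slope was 0.16 ± 0.03 (SE) log2 units per µM with an edgeR adjusted p of 0.000102. *Id1* went from 19.0 and 18.1 CPM without inhibitor to 35.9 and 19.1, 51.0 and 36.0, 37.7 and 34.0, and 19.6 and 39.2 CPM. Its top level was at 5 µM, and 1 of the libraries at 10 µM, the shallowest with 6 counts of *Id1*, was back near the untreated ones. The slope of 0.09 ± 0.03 (SE) had an edgeR adjusted p of 0.0409. This call was lost without any 1 of 6 libraries, namely both at 0 µM, both at 7.5 µM, replicate 2 at 2.5 µM and replicate 2 at 10 µM, with adjusted p from 0.0590 to 0.279. *Id4*, the least abundant of the 4, was at 3.19 to 4.35 CPM without inhibitor and 9.04 to 15 CPM at 7.5 and 10 µM, a pooled ratio of 2.93 with a counting interval of 1.52 to 6.20. Its slope of 0.15 ± 0.05 (SE) had an edgeR adjusted p of 0.0289, which was lost without either library at 0 µM or replicate 2 at 7.5 µM (adjusted p 0.10 to 0.159). *Id2* stood at 59.8 and 89.3 CPM without inhibitor and at 77.8 to 98.0 CPM at 7.5 and 10 µM, with a slope of 0.05 ± 0.02 (SE) and an adjusted p of 0.168 by edgeR. It would have been called without replicate 2 at 0 µM, with an adjusted p of 0.0470.

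*Smad6*, the inhibitory Smad of the BMP branch, was at 27.2 and 30.8 CPM without inhibitor, 12.9 and 16 at 2.5 µM, and 18.1 to 29.4 CPM at the higher doses. Its slope was -0.0070 ± 0.03 (SE) log2 units per µM, with an edgeR adjusted p of 0.921, and the levels did not follow a line, since both 2.5 µM libraries were the lowest of all 10 and both untreated ones lay above the 5 and 7.5 µM libraries. *Bambi* ranged from 9.15 to 19.7 CPM with no order by dose, with a slope of 0.03 ± 0.04 (SE) and an edgeR adjusted p of 0.715.

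In the clones the members did not move together. The low clones had more *Id1*, *Id2* and *Id3* than any of the other 22 libraries, and in the high clones *Id2* was below all 10 unedited libraries while *Bmp4* was at its highest. Over the 15 clones, *Id1*, *Id2* and *Id3* fell with MES and 0 members rose, among the 7 of 9 members that passed the filter on low counts (*Id4* and *Msx2* did not). Over all 10145 genes fitted, 13.0% fell and 9.91% rose with MES.

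*Id2* showed the widest separation. It was at 155 CPM in the S45C clone (Wilson 95% interval 128 to 188), 153 in T41N (123 to 192) and 199 in T41S (179 to 221), intervals that cover counting error only. The medium clones had 31.4 and 19.3 CPM for S45F and 50.6 for S45P, and the 9 high clones ranged from 19.8 to 33.1 CPM with a median of 23.8. The fitted change was -1.25 ± 0.14 (SE) log2 units per 10000 units of MES, with an edgeR adjusted p of 2.76e-06. The within-mutation SD was 0.30 log2 units over the 4 pairs of clones, all medium or high, against 1.1 over all 15 clones, and no low mutation had a second clone. *Id3* was at 101, 113 and 167 CPM in the S45C, T41N and T41S clones, at 46.4 to 65.2 in the medium and at 27.8 to 63.2 in the high ones, a change of -0.66 ± 0.10 (SE) per 10000 units of MES with an edgeR adjusted p of 0.000123. *Id1* was at 116, 74.7 and 85.9 CPM in the same 3 low clones, 33.9 to 45.3 in the medium and 24.6 to 68.6 in the high ones, a change of -0.40 ± 0.13 (SE) with an edgeR adjusted p of 0.0279.

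None of the 3 relations passed edgeR's test without the low clones, a subset with fewer clones and a narrower range of MES. That subset therefore cannot show whether the relations are graded over the other clones. In the 12 medium and high clones, an alternative chosen after seeing the data, 0 of the members passed edgeR's test, with changes of -0.36 for *Id2*, -0.24 for *Id3* and 0.12 for *Id1* and adjusted p from 0.456 to 0.884. The *Id1* call was also lost without the S45C, T41N or T41S clone or S37F clone H2 (edgeR adjusted p 0.0505 to 0.176). The low clones also differed from the high ones in markers of other cell types, whose part in these results was not tested. The summed level of the 5 fibroblast markers was 51.3 to 155 CPM in the low and 4.13 to 15.8 in the high clones, although *Lum* was at 0 in 23 of 25 libraries. The 6 trophoblast markers summed to 36.2 to 107 against 10.1 to 29.1 CPM, with *Elf5* at 0 in 18 libraries. The neural markers *Nes*, *Tubb3* and *Pax6* fell with MES, by -1.69, -0.65 and -0.91 log2 units per 10000 units (edgeR adjusted p 9.6e-07, 0.0113 and 0.0387). *Nes* was at 30.2 to 127 CPM in the low, 7.34 to 14.6 in the medium and 3.72 to 11.2 in the high clones. The 6 ES cell markers summed to 996 to 1778 in the low and 2500 to 3499 CPM in the high clones.

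**Figure D2:**
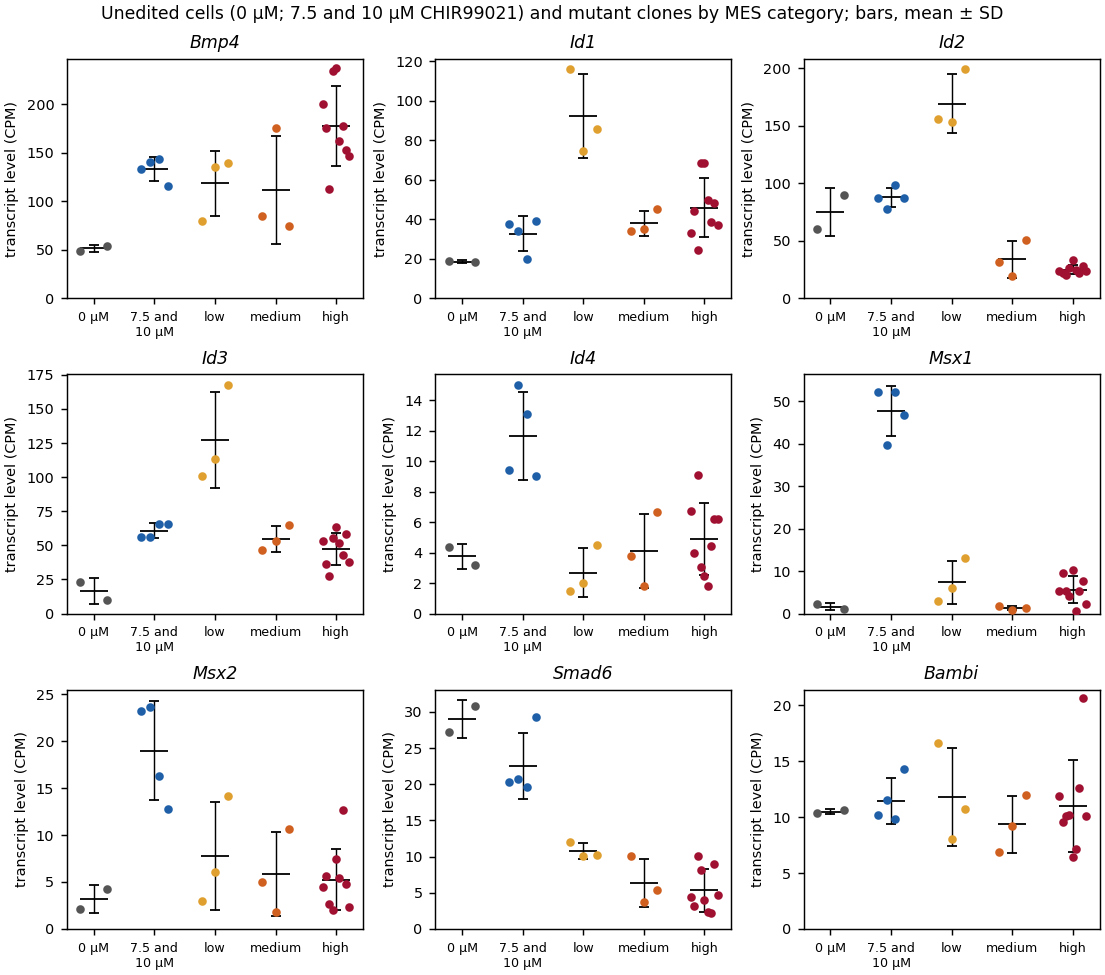
Transcript level in CPM (vertical axis, from 0) of the 9 members in untreated unedited cells (2 libraries), cells at 7.5 and 10 µM CHIR99021 (4) and clones of the low (3), medium (3) and high (9) MES categories, with 1 point per library and bars for mean ± SD. *Id2* is at 153 to 199 CPM in the low and 19.8 to 33.1 CPM in the high clones, and *Msx1* is at 39.8 to 52.3 CPM only in cells with inhibitor.

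*Bmp4* was above both untreated libraries in all 15 clones. It was at 80, 135 and 140 CPM in S45C, T41N and T41S, at 84.7 and 175 in S45F and 74.5 in S45P, and from 112 to 237 with a median of 175 in the high clones. Its change with MES was 0.30 ± 0.12 (SE) log2 units per 10000 units, with an edgeR adjusted p of 0.0847, which became 0.0238 without S37F clone H2. Clones with the same mutation could differ widely. S37F clone H2 had 112 CPM (Wilson 95% interval 97.9 to 128) and clone G1 had 234 (206 to 267), and S45F clone C1 had 84.7 (71.6 to 100.3) and clone D9 175 (152 to 202). The within-mutation SD of 0.53 log2 units was as large as the 0.52 over all clones. *Msx1* was low in every clone, from 0.599 to 13.0 CPM, at 3 or fewer counts in 7 of the 15, and its change with MES of -0.21 ± 0.28 (SE) had an edgeR adjusted p of 0.638. *Smad6* (2.23 to 12.1 CPM, -0.25 ± 0.21 SE, adjusted p 0.430) and *Bambi* (6.42 to 20.7 CPM, 0.0035 ± 0.15 SE, adjusted p 0.992) showed no relation to MES that passed edgeR's test.

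Set against untreated cells, the high clones had more *Id1* and *Id3* and less *Id2* and *Smad6*, which are 4 calls among the 7 tested members in an edgeR model of all 25 libraries. Of the 11375 genes in that model, 16.1% were higher and 17.9% lower. *Id2* was lowered by a log2 fold change of -1.55 ± 0.21 (SE, edgeR adjusted p 2.27e-06), from a mean of 74.6 ± 21 CPM (SD, n = 2) to 24.7 ± 4.1 (SD, n = 9). *Smad6* changed by -2.40 ± 0.32 (SE, edgeR adjusted p 1.8e-06), from 29.0 ± 2.6 (SD, n = 2) to 5.35 ± 3.0 CPM (SD, n = 9). *Id1* was higher by 1.29 ± 0.32 (SE, edgeR adjusted p 0.00275), a call lost without replicate 1 of the untreated cells (adjusted p 0.0711), and *Id3* by 1.40 ± 0.31 (SE, adjusted p 0.00102), or by 2.29 without that library. Among those that did not pass, *Id4* was at 0.33, *Msx2* at 0.85 and *Bambi* at 0.06 log2 units. *Bmp4* stood 1.79 ± 0.28 (SE) and *Msx1* 1.63 ± 0.69 (SE) higher, untested. Cell type markers moved in this comparison too, and their part was not tested. By edgeR, 4 of 6 ES cell markers (*Klf4*, *Nanog*, *Esrrb*, *Zfp42*), 3 of 5 fitted primitive endoderm markers (*Gata6*, *Sox17*, *Sox7*) and the mesendoderm markers *T* and *Eomes* were higher, and the neural markers *Nes* and *Pax6* and the fibroblast markers *Col1a1* and *Col1a2* were lower.

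The low clones, compared with the same 2 untreated libraries, had more of all 3 abundant *Id* genes and again less *Smad6*, also 4 of 7 calls, against a background of 17.1% higher and 15.4% lower. *Id3* was higher by 2.84 ± 0.34 (SE, edgeR adjusted p 3.83e-07), or by 3.72 without replicate 1 of the untreated cells, *Id1* by 2.27 ± 0.36 (SE, adjusted p 2.07e-05) and *Id2* by 1.21 ± 0.24 (SE, adjusted p 0.000272). *Smad6* was lower by a log2 fold change of -1.45 ± 0.41 (SE, edgeR adjusted p 0.00682), at 10.1 to 12.1 CPM. All 15 clones were below every unedited library for *Smad6*, whose lowest value was 12.9 CPM. *Bmp4* stood 1.20 ± 0.32 (SE) higher, untested. *Msx1* stood 2.25 ± 0.75 (SE) higher, also untested, and 1.19 higher without the T41S clone, which had 13.0 CPM against 3.02 and 6.05 in the other two. *Msx2* was at 1.63 ± 0.70 (SE) with an edgeR adjusted p of 0.0737, and was at 1.96 without the S45C clone (adjusted p 0.0300), 1.09 without replicate 1 of the untreated cells (0.451) and 0.51 without the T41S clone (0.738). Of the markers, *Gata3*, *Krt7* and *Hand1* (trophoblast, 3 of 3 fitted) and *Nes* and *Tubb3* (neural, 2 of 4) were also higher in the low clones. So were *T* and *Mixl1* (mesendoderm, 2 of 3) and *Col1a1* (fibroblast, 1 of 3), while *Esrrb* (ES cell, 1 of 6) was lower. The neural marker *Pax6* was at -1.06 log2 units and did not pass (edgeR adjusted p 0.207). The part of these markers was not tested.

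All but 1 of the 9 high clones held more *Bmp4* than any library at the top doses. Several response genes stood lower in the same comparison, and their relation to the *Bmp4* level was not tested. Against the 4 libraries at 7.5 and 10 µM, 4 of the 7 tested members were lower in the high clones (*Id2*, *Id4*, *Msx2* and *Smad6*) and 0 were higher, in a comparison in which 23.7% of all genes were lower and 23.4% higher. *Id2* differed by -1.81 ± 0.17 (SE, edgeR adjusted p 1.52e-09), *Smad6* by -2.12 ± 0.28 (SE, adjusted p 5.16e-07), *Msx2* by -1.75 ± 0.37 (SE, adjusted p 0.00027) and *Id4* by -1.19 ± 0.35 (SE, adjusted p 0.00687). The *Id4* call was lost without replicate 2 at 7.5 µM or replicate 2 at 10 µM (edgeR adjusted p 0.0588 and 0.0565). *Id4* and *Msx2* had not passed the filter on low counts over the clones alone, so their calls here lean on their levels with inhibitor. *Msx1* was -3.05 ± 0.28 (SE) lower, untested, at 47.7 ± 5.9 CPM (SD, n = 4) with inhibitor and 5.59 ± 3.2 (SD, n = 9) in the clones, and all 15 clones were below the 6 libraries at 5 µM or more. *Bmp4* was at 0.42 ± 0.19 (SE), untested, and the remaining clone, S37F H2, had 112 CPM against 115 to 144 with inhibitor. *Id1* (0.38 ± 0.23 SE, adjusted p 0.181), *Id3* (-0.37 ± 0.20 SE, adjusted p 0.135) and *Bambi* (-0.15 ± 0.29 SE, adjusted p 0.683) did not pass edgeR's test. Of 3 mesendoderm markers fitted, *T* and *Mixl1* rose with the dose and *Eomes* had a slope of 0.02 (edgeR adjusted p 0.827). In the high clones *T* and *Mixl1* were lower than at the top doses, by -1.71 and -3.10 log2 units, and *Eomes* was higher by 1.16 (adjusted p 2.5e-06, 1.7e-06 and 0.00432). The sum of the 6 mesendoderm markers listed was 16.9 to 20.2 CPM without inhibitor and 118 to 157 at 7.5 and 10 µM. In the high clones it was 27.1 to 94.1 CPM, with *Mesp1* at 0 in 20 of 25 libraries. Other lists moved too between the high clones and the top doses. By edgeR, all 6 ES cell markers and 3 of 5 fitted primitive endoderm markers were higher. *Gata3* and *Krt7* (trophoblast, 2 of 3 fitted) and *Col1a1* and *Col1a2* (fibroblast, 2 of 3) were lower. Of 4 fitted neural markers, 2 were higher, among them *Tubb3* at 1.38, and *Nes* was lower at -1.76. The part of all these markers in these differences was not tested.

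**Figure D3:**
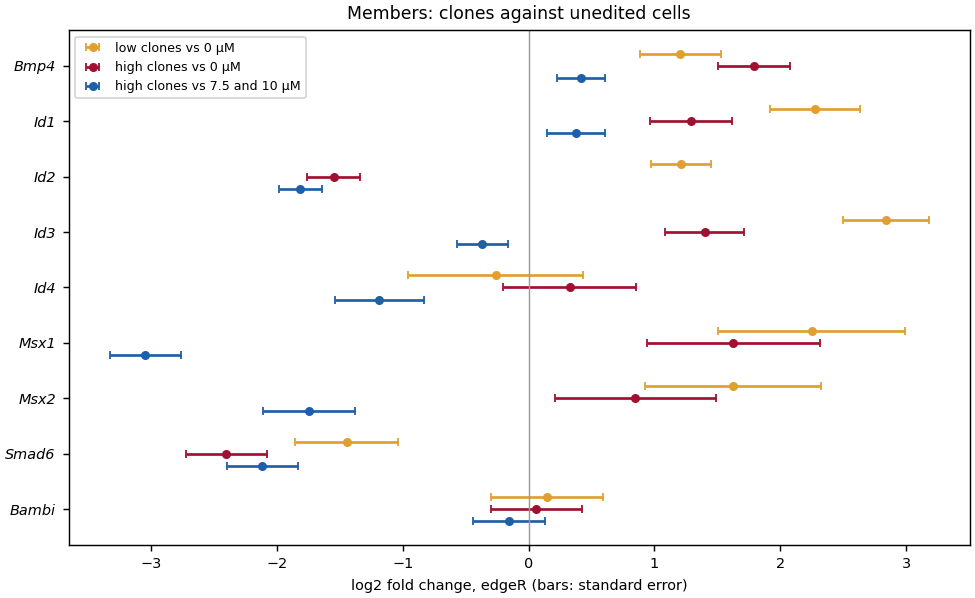
Log2 fold change of the 9 members (horizontal axis, points with standard errors from the edgeR model of all 25 libraries) for low clones against 0 µM, high clones against 0 µM and high clones against 7.5 and 10 µM. The first 2 comparisons share the untreated libraries, *Id2* lies at 1.21 in the low and -1.55 in the high clones, and *Msx1* lies at -3.05 against the top doses.

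Other ligands of the family did not move as one with *Bmp4*. Of 7 listed, 3 had enough counts for the dose fit, and 2 of them rose (dose background 5.89%). *Bmp2*, a close relative of *Bmp4*, was at 1.09 and 3.19 CPM without inhibitor and 16.3 to 22.6 at 7.5 and 10 µM, with a slope of 0.29 ± 0.05 (SE) and an edgeR adjusted p of 4.4e-05. It too passed the filter on low counts only through treated libraries. *Bmp7* went from 16.3 and 18.1 CPM to 42.5 to 51.2 CPM, with a slope of 0.14 ± 0.03 (SE, adjusted p 0.0011). In all 15 clones *Bmp7* was below the 10 unedited libraries, at 3.02 to 4.52 CPM in the low, 1.84 to 3.77 in the medium and 3.07 to 13.9 in the high clones. Against untreated cells it was lower by log2 fold changes of -2.06 in the low and -1.03 in the high clones (edgeR adjusted p 0.00212 and 0.0176). With MES, *Bmp7* changed by 0.56 ± 0.22 (SE) and did not pass (edgeR adjusted p 0.0721), with the same sign as *Bmp4*. *Bmp8b*, the other listed ligand in the MES fit, fell by a log2 change of -1.37 ± 0.20 (SE, edgeR adjusted p 4.6e-05), where 13.0% of all genes fell. It went from 22.2 to 44.1 CPM in the low clones to 1.07 to 10.3 in the high ones. Its dose slope was 0.09 ± 0.06 (SE, edgeR adjusted p 0.325). Against untreated cells, *Bmp2* and *Bmp8b* were higher in the low clones by 3.13 and 3.12 log2 units (edgeR adjusted p 0.00144 and 0.000204). The untreated libraries held only 5 counts of *Bmp2*. In the high clones these 2 genes stood at 1.30 and 0.33 and did not pass (adjusted p 0.181 and 0.718). *Bmp2* was lower in the high clones than at the top doses, by -2.11 (edgeR adjusted p 2.09e-05). *Bmp5*, *Bmp6*, *Bmp8a* and *Gdf6* did not pass the filter in either fit.

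The receptors showed no dose response that passed the test, with 0 of 5 called by edgeR, where 5.89% of all genes rose and 6.63% fell. With MES, 2 of 5 fell, where 13.0% of all genes did, *Bmpr2*, the type II receptor of BMPs, by a log2 change of -0.95 ± 0.14 (SE, adjusted p 4.3e-05) and *Bmpr1a*, a type I receptor, by -0.25 ± 0.08 (SE, adjusted p 0.0305). *Bmpr2* was at 31.7 to 54.5 CPM in the low and 7.41 to 15.2 in the high clones. The signal-carrying Smads (*Smad1*, *Smad4* and *Smad5*) had 0 of 3 calls in either fit, with medians of -0.01 log2 units per µM and -0.03 per 10000 units of MES, and the E-proteins (*Tcf3*, *Tcf4* and *Tcf12*) likewise 0 of 3. The medians over all genes fitted were 0.00084 per µM and 0.0025 per 10000 units of MES. With so few genes listed, 0 calls lies near the shares over all genes in either fit (9.91% rose and 13.0% fell with MES). Among secreted modulators, 1 of 5 rose with dose, where 5.89% of all genes did. This was *Bmp1*, a protease that releases BMPs by cleaving chordin, at 0.10 ± 0.03 (SE, edgeR adjusted p 0.0120). It fell with MES by -1.47 ± 0.22 (SE, adjusted p 7.1e-05), from 36.2 to 152 CPM in the low to 3.0 to 20 in the high clones.

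The intracellular inhibitors moved in both directions. With dose, *Smad7*, an inhibitory Smad of the BMP and TGF-β branches, rose by 0.05 ± 0.01 (SE, edgeR adjusted p 0.0152), while the repressors *Ski* and *Skil* fell by -0.09 ± 0.02 and -0.07 ± 0.01 (SE, adjusted p 0.00134 and 0.0011), making 1 up and 2 down of 7, where 5.89% and 6.63% of all genes were called. With MES, where 9.91% of all genes rose and 13.0% fell, *Smad7* rose by 0.50 ± 0.16 (SE, adjusted p 0.0252), and *Skil*, *Ppm1a* and *Smurf2* fell, by -0.57, -0.24 and -0.23 (adjusted p 4.4e-06, 0.0065 and 0.0309). *Smad7* was at 99.6 to 127 CPM in the low and 161 to 391 CPM in the high clones, and 94.6 to 163 CPM in unedited cells, so it ran opposite to *Smad6* in the high clones. Of 8 other BMP response genes, 4 were in the dose fit, where *Gata3* and *Dlx3* rose (0.17 ± 0.05 and 0.15 ± 0.04 SE, adjusted p 0.0132 and 0.0119) and *Dusp9* fell by -0.07 ± 0.02 (SE, adjusted p 0.002). *Gata3* and *Hand1* are on this list and also among the trophoblast markers, so the rise of *Gata3* is the same result as the one given there. *Dusp9*, a phosphatase of ERK, was the 1 in the MES fit and fell there too, by -0.49 ± 0.08 (SE, adjusted p 0.000156), from 228 to 316 CPM in the low to 95 to 181 CPM in the high clones.

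**Figure D4:**
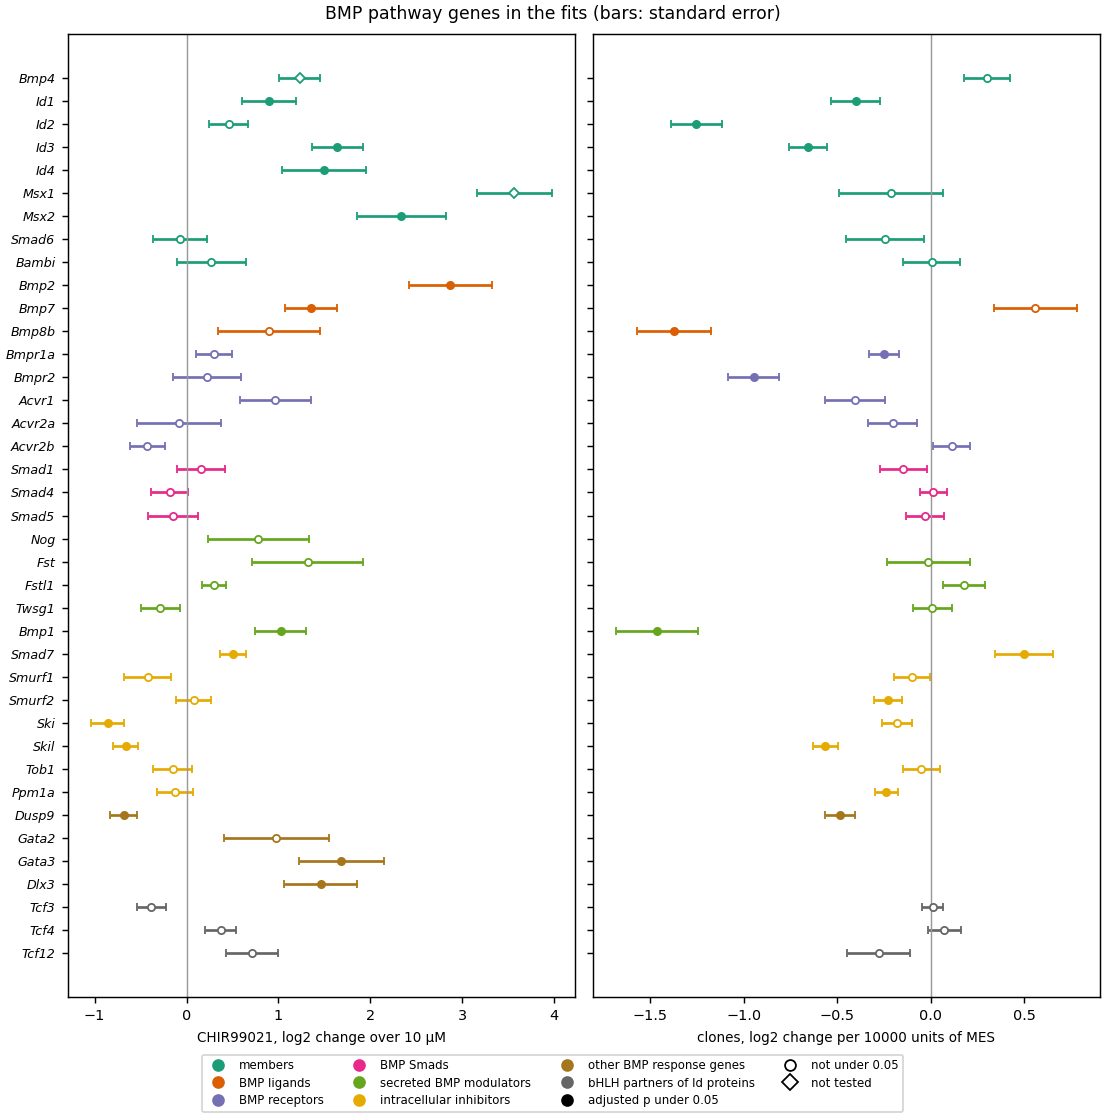
Fitted log2 change with standard error of the members and other BMP pathway genes over 10 µM of CHIR99021 (left) and per 10000 units of MES over the 15 clones (right), colored by role. Filled points passed an adjusted p of 0.05, diamonds were not tested, and genes below the filter are left blank. *Id1* and *Id3* lie right of 0 with the dose and left of 0 with MES.

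The genes whose pattern over all 25 libraries was most like 3 of the members, by Pearson's r of log2 (scaled CPM + 1) among those with a mean of at least 20 CPM, are given as a description. All points share the same libraries and their depth. For *Bmp4* they were *Selenof* (r = 0.82), *B4galt6* (0.80) and *Dusp11* (0.80) among 7090 genes. For *Msx1* they were *Spag9* (0.91), *Cdkn1a* (0.90) and *5031439G07Rik* (0.89) among 7091, and *Cdkn1a*, a cell cycle inhibitor, rose from a mean of 295 to 857 CPM between 0 µM and the top doses and was at 381 in the high clones. For *Id1* they were *Ufm1* (0.82), *Txnl1* (0.82) and *Nomo1* (0.81) among 7090.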

How the data were processed

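The deposited table holds whole-number counts per gene, with no normalization. The authors trimmed reads (Cutadapt), removed ribosomal reads (SortMeRNA), aligned to mm10 (STAR) and removed duplicates by molecular identifier (UMI-tools). A separate step then filtered duplicates among the aligned records (Picard), and featureCounts 2.0.1 made the counts. Gene names and coordinates came from GENCODE M21 (GRCm38), which held 48058 of 48440 IDs; the annotation release and strand setting used for counting are not given in the sources used here. Models were fitted across all genes with edgeR 4.0.16 (quasi-likelihood test on TMM-scaled counts, minimum count 10, Benjamini-Hochberg threshold 0.05). The predictor was the dose, the MES published by the study, or 1 of 8 groups (5 doses and 3 MES categories) that shared 1 estimate of spread. Wilson and exact intervals (95%, SciPy 1.17.1) cover counting error only. On simulated counts of the same libraries the edgeR fits recovered most planted changes. These were larger than several member slopes, among them those of *Id1*, and lay in genes with more counts than *Id4*. The power for such members was not tested. The members, lists and rules were chosen with earlier results of these data known. The rule named the 9 members, at most 6 genes of each other list with an adjusted p under 0.05 in the dose or MES fit, and the 3 genes most like *Bmp4*, *Msx1* and *Id1*. Groups and genes named beyond it, such as markers at 0, were named after their values were seen. Alternatives were RLE scaling, DESeq2 1.42.0, no filter, dose or category as a factor, the rank of MES, counts summed per mutation, the mitochondrial share as a factor, a replicate block, subsets of libraries and each library left out. The sum of 1 marker list is not reported here. Replicate pairs differed by more than sampling noise (chi-square per degree of freedom 1.33 to 3.66).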

Additional observations from a re-analysis of the deposited data

Results flagged for a closer look

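Among the 9 high clones, the group of 4 to 10 libraries in which a single library can stand apart, 35 genes were screened (the members and the named pathway and marker genes), and 5 had a library whose gap to its nearest neighbor was more than 0.493 of the whole range, Dixon's 95% limit. Chance flags about 1 group in 20. *Msx2* was at 12.6 CPM in T41A clone E6, with the next clone at 7.41 CPM. *Bambi* was at 20.7 CPM in T41I clone B9 (next 12.6 CPM), and *Bmp8b* at 10.3 CPM in the same clone. *Bmpr2* was at 15.2 CPM in S37C clone G12, and *Mixl1*, a mesendoderm marker, at 5.11 CPM in S37F clone G1, on 5 counts.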

How the results depend on the processing

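Of 1230 values recomputed under the alternatives, 1183 were classed as the same, 29 lost a call, 5 gained one, 12 moved and 1 reversed. The first class takes in tested values that stayed on their side of the threshold, also where an uncalled value changed sign. It also takes in untested values and counts of calls that changed little. With MES, *Smad6* ran from -0.99 to 1.66 and *Bmp4* from -0.29 to 0.56, on the scales of the alternatives, with no reversal counted. The 4 dose calls became 2 with DESeq2, where *Id1* and *Id4* had adjusted p of 0.0850 and 0.0624, and lay between 2 and 4 when each library was left out; the low value came without replicate 1 at 0 µM or replicate 2 at 7.5 µM. The 3 calls with MES became 0 in the high clones alone, 0 in the medium and high clones and 1 with the T41N and T41S clones left out together, the last 2 chosen after seeing the data, and 2 to 3 with each library left out. *Id1* reversed to 0.12 with MES in the medium and high clones, and lost its call in 7 others of the 25 alternatives of that fit. The subsets by category or mutation hold fewer clones and a narrower range of MES, and the cause was not tested. Calls against untreated cells lay between 3 and 4 (high clones) and 4 and 5 (low clones), and against the top doses between 3 and 4, with each library left out. Replicate numbers did not pair the libraries (correlation of same-numbered deviations -0.133 to 0.116 in dose and -0.175 to 0.132 in clone pairs). With the number as a block there were 3 calls with dose, where *Id4* had an adjusted p of 0.0512, 3 with MES and 4 in each comparison of clones with unedited cells, and no other member's call changed. Restricting the dose fit to the 6 libraries with over 0.8% mitochondrial counts gave 4 calls again, with *Id2* gained (adjusted p 0.0390) and *Id4* lost (0.154). Depth limits *Id4*, *Msx1* and *Msx2* in the clones most, with 5, 7 and 5 of the 15 at 3 counts or fewer.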

Other observations

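Markers of primitive endoderm, a lineage that ES cells can enter, varied more among the 9 high clones than any group of unedited libraries did. Their summed level ran from 7.76 to 255 CPM in the high clones and from 11.5 to 42.5 CPM in the 10 unedited libraries. *Sox17* ran from 0 to 60.2 CPM in the high clones, and *Gata6* ran from 3.10 to 85.4 CPM. In the high clones *Gata6*, *Sox17* and *Sox7* were higher than in untreated cells by 2.78, 4.48 and 3.74 log2 units (edgeR adjusted p 0.0201, 0.0125 and 0.0205), although *Sox17* had 2 and 0 and *Sox7* 1 and 0 counts in the untreated libraries, so that the fitted folds of these depend on the prior count. Against the top doses *Gata6*, *Sox17* and *Dab2* were higher by 1.98, 3.16 and 2.86 (edgeR adjusted p 0.0168, 0.00518 and 0.00122). With MES, 0 of 4 fitted markers passed edgeR's test, where 9.91% of all genes rose and 13.0% fell. Their changes ran from -0.28 ± 0.29 (SE) for *Dab2* to 0.91 ± 0.50 (SE) for *Gata6*. With errors of this size, 0 calls does not show that a relation is absent. *Klf4*, *Zfp42* and *Esrrb*, transcription factors of naive pluripotency, rose with MES by 0.84, 0.40 and 0.60 log2 units per 10000 units (edgeR adjusted p 3.2e-05, 0.0017 and 0.0009).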
